A study of Strongylocentrotus purpuratus with 2 samples.

Results

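Transcripts of 6 regulators of neural differentiation were examined: the POU homeobox genes Sp-Brn1-2-4 and Sp-POU4F2, and the zinc finger genes Sp-z167, Sp-IA-1, Sp-Myt1 and Sp-Scratch. They were chosen by gene name, and each name pointed to a single transcript model, giving 6 of the 17269 models in the deposited tables. The names were picked with the difference between the libraries already known, so their ratios describe the genes and carry no test. The RNA was taken from whole Strongylocentrotus purpuratus (purple sea urchin) embryos raised at 15 °C to 30 hours after fertilization. One group was injected with a morpholino against SoxC, an antisense oligonucleotide that blocks translation or splicing of its target, and the other with glycerol. Each group was 1 library from a pool of about 1000 embryos, with 4763993 reads for the SoxC morpholino and 4414503 for the glycerol control. No library from embryos with a control morpholino, and no second library per group, was analysed here, so an effect of SoxC cannot be told apart from an effect of any morpholino, or from a difference in stage or culture.

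POU genes code for transcription factors that pair a POU-specific domain with a homeodomain, and several of them act as neurons leave the cell cycle and take on their identity. Sp-IA-1, Sp-Myt1 and Sp-Scratch are named after vertebrate or fly regulators that turn down progenitor programmes in newborn neurons. SoxC factors act in newly forming neurons in many animals, and in the sea urchin embryo Brn1-2-4 is known as a gene that neural precursors use after SoxC. Neurons are a small share of the cells of an embryo at this stage. In RNA from whole embryos, fewer cells of a type and less RNA per cell cannot be told apart.

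The soxC transcript itself (Sp-SoxC) stood at 38052.2 normalized units in the morpholino library and 10632.2 in the control. It was thus higher where the morpholino was directed against it, by 3.58-fold, and since a morpholino need not lower the RNA of its target, this does not check the labels. Every direction below rests on those labels. Ratios are the morpholino library over the glycerol control, on the deposited scale. Ranges in parentheses are exact 95% counting intervals from the reads recovered from the deposited values, and they cover counting error only. A model was called measured at a mean level of at least 1 CPM (reads of a model per 1000000 recovered reads). It was called lower or higher when the ratio was at least 2-fold and the interval excluded a ratio of 1. By this rule 4.67% of the 8819 measured models were lower and 0.658% were higher. The overall median, taken over the log2 ratios of these models, was -0.21, and log2 ratios called relative below have it subtracted. Setting that median to 0 turned the 58 higher and 412 lower models into 135 higher and 207 lower ones, and the same 3 regulators named next met the rule. The most abundant model, which has no gene name, took 932435 reads (195726 CPM) in the morpholino library and 298102 (67528 CPM) in the control. Leaving it out of the totals used for scaling gave 115 higher and 239 lower models.

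Of the 6 regulators, 3 were lower by the rule: Sp-z167, Sp-Brn1-2-4 and Sp-IA-1. Sp-Myt1 was measured and met the rule in neither direction. Sp-POU4F2 and Sp-Scratch lay below the level floor in these libraries. None of the 6 was higher. Since the names were chosen on this same contrast, nothing is read from 3 of 6 against the 4.67% over all models.

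Sp-Brn1-2-4 (WHL22.40221.0) is the sea urchin member of the POU class that includes the vertebrate Brn1, Brn2 and Brn4 genes, which act in neuronal progenitors and young neurons. It had 394.3 normalized units in the SoxC morpholino library and 1564.6 in the glycerol control, from 155 reads in the morpholino library and 591 in the control. Its level was 32.5 CPM (27.6 to 38.1) in the morpholino library, against 133.9 CPM (123.3 to 145.1) in the control, so the intervals of the libraries lie far apart. The fold was 3.97 lower (3.32 to 4.77), and the relative log2 ratio was -1.78. Of the 1601 measured models with at least as many reads over both libraries, none of the others had a log2 ratio as low. The gene was picked with its ratio known, so this rank restates the choice and nothing is read from it.

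Sp-POU4F2 (WHL22.738139.0) carries the name of the mouse gene also called Brn3b, which is needed for retinal ganglion cells to form. It was close to undetected, with 1 read in the SoxC morpholino library and 5 in the glycerol control. The level was 0.21 CPM (0.00531 to 1.17) in the morpholino library and 1.13 CPM (0.368 to 2.64) in the control, and these intervals overlap. The fold of 5.2 lower had an interval from 0.582 to 246, which includes equal levels, so no difference was detectable at this depth. Of the other POU genes in the tables, Sp-Pou6 had 18 reads in the morpholino library and 27 in the control, a ratio of 0.64 (0.332 to 1.21) that likewise includes equal levels. Its model also carries the name of an uncharacterised gene. The model of Sp-Oct1-2 was blank in both libraries, and a blank is missing here, not 0. The interval of Sp-Pou6 still lies wholly above that of Sp-Brn1-2-4, which had a ratio of 0.25 (0.21 to 0.301). Among the POU genes with a value, only the interval of Sp-Brn1-2-4 excludes equal levels.

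**Figure D1:**
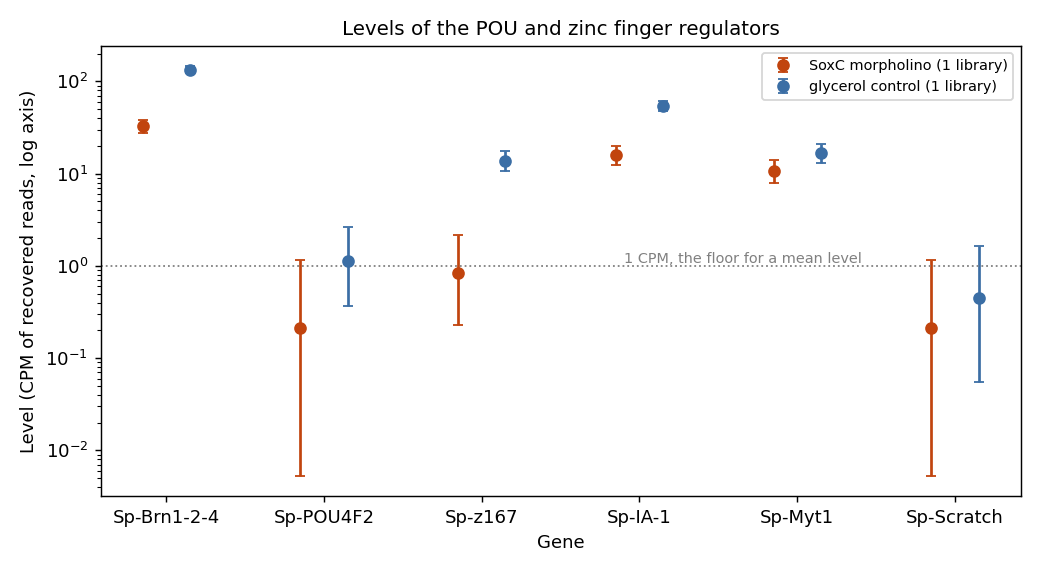
Level of each regulator in the SoxC morpholino library (left, orange) and the glycerol control (right, blue) in CPM of recovered reads on a log axis, with exact 95% Poisson intervals from the reads of 1 library each. Points are to be read within a gene, because levels are not divided by transcript length; the libraries separate for Sp-Brn1-2-4, Sp-z167 and Sp-IA-1 and overlap for Sp-POU4F2, Sp-Myt1 and Sp-Scratch.

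Sp-z167 (WHL22.171389.2), a zinc finger gene known by a catalogue number, had the lowest ratio of the set. It stood at 10.2 normalized units in the SoxC morpholino library and 161.5 in the glycerol control, from 4 reads in the morpholino library and 61 in the control. In the morpholino library its level of 0.84 CPM (0.229 to 2.15) was under the floor, against 13.8 CPM (10.6 to 17.7) in the control, so the gene counted as measured through the control alone. The fold was 15.9 lower (5.89 to 60.1) and the relative log2 ratio was -3.62. With 4 reads on one side, the size of this fold is loosely set, while its nearer bound is still above the whole interval of Sp-Brn1-2-4. Among the 5302 measured models with at least as many reads, none of the others had a lower log2 ratio. It also ranked first of the lower models by the bound of its interval, where Sp-Brn1-2-4 was the 7th and Sp-IA-1 the 16th. These ranks rest on ratios known when the names were picked, so nothing is read from them.

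Sp-z167 was also set beside the other zinc finger genes known by numbers. Of 141 other measured models with such a name, 6 were lower and 2 were higher, or 4.26% and 1.42%, beside 4.67% and 0.658% of all models. Their median relative log2 ratio was -0.03, with 74 models below the overall median and 67 above it. The lowest of them was Sp-z223, with 7 reads in the SoxC morpholino library and 26 in the glycerol control, a fold of 3.87 lower (1.63 to 10.5). This class was listed after the values had been seen.

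Sp-IA-1 (WHL22.769122.0) takes its name from the insulinoma-associated gene now called INSM1, a zinc finger repressor that in mice drives progenitors of neurons and endocrine cells towards differentiation. It had 190.8 normalized units in the SoxC morpholino library and 635.4 in the glycerol control, from 75 reads in the morpholino library and 240 in the control. The level was 15.7 CPM (12.4 to 19.7) in the morpholino library and 54.4 CPM (47.7 to 61.7) in the control, with no overlap. The fold was 3.33 lower (2.56 to 4.38), with a relative log2 ratio of -1.52. Of the 2741 measured models with at least as many reads, 1 had a lower log2 ratio, and that was Sp-Brn1-2-4. Both genes were picked with their ratios known, so nothing is read from this rank.

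Sp-Myt1 (WHL22.447009.1) is named for myelin transcription factor 1, a zinc finger protein that in frogs and mice promotes neuronal differentiation and counters Notch signalling. Its model also carries the name Sp-Myt1-2, and the genes behind these names cannot be separated. The value was 129.7 normalized units in the SoxC morpholino library against 193.3 in the glycerol control, from 51 reads in the morpholino library and 73 in the control. The levels of 10.7 CPM (7.97 to 14.1) in the morpholino library and 16.5 CPM (13 to 20.8) in the control overlap at their ends. The fold was 1.49 lower (1.03 to 2.17), short of 2-fold, and the relative log2 ratio of -0.36 placed it 1803rd from the lowest of all measured models. Of the 4182 models with at least as many reads, 353 others had a log2 ratio as low or lower.

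Sp-Scratch (WHL22.758741.0) is named for the fly gene scratch, a Snail family repressor that acts in newborn neurons. It had 1 read in the SoxC morpholino library, at 0.21 CPM (0.00531 to 1.17), and 2 in the glycerol control, at 0.45 CPM (0.0549 to 1.64). These intervals overlap. Both counts are within the 3 reads used as a detection floor in each library, so no fold is given. The related model Sp-ScratchX was measured, with 139 reads in the morpholino library and 190 in the control and a ratio of 0.7 (0.561 to 0.879). This interval excludes equal levels but includes the ratio of the median model, and the ratio falls short of 2-fold. Sp-Sna, named for snail, a gene of mesoderm and of cells that leave an epithelium, had 4 reads in the morpholino library and 11 in the control, a ratio of 0.35 (0.0811 to 1.18) that includes equal levels. Near-identical stretches of such zinc finger genes can share reads, and how these were divided is not known.

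**Figure D2:**
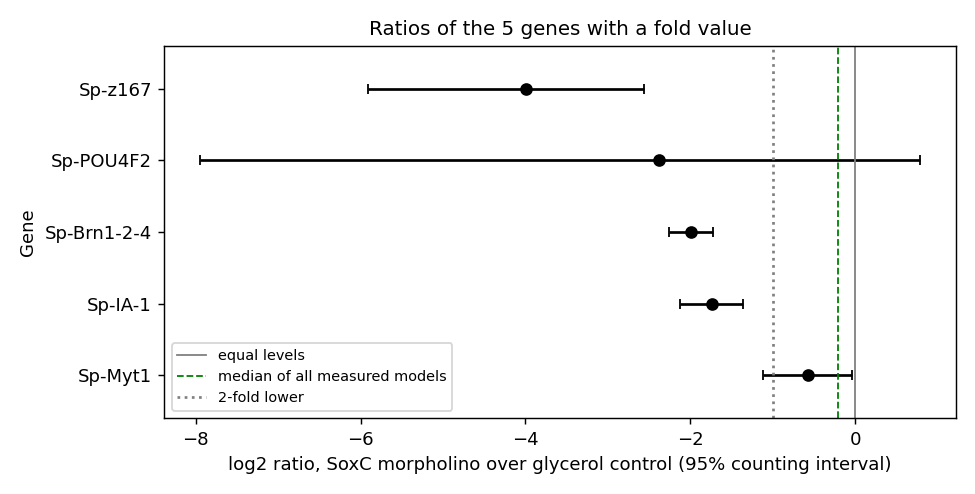
log2 ratio of the SoxC morpholino library over the glycerol control, without a pseudocount, for the 5 regulators with a fold value, with exact 95% counting intervals as bars. The intervals of Sp-z167, Sp-Brn1-2-4 and Sp-IA-1 lie wholly past 2-fold lower (dotted line), that of Sp-Myt1 reaches across the overall median (dashed line), and that of Sp-POU4F2 spans equal levels (grey line).

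The ratios within the set were unequal. Of the 10 pairs among the 5 genes with a fold, the counting intervals of 5 pairs did not overlap. Sp-z167 lay apart from Sp-Brn1-2-4, Sp-IA-1 and Sp-Myt1, and Sp-Myt1 lay apart from Sp-Brn1-2-4 and Sp-IA-1 as well. Sp-Brn1-2-4 and Sp-IA-1 had overlapping intervals, as did Sp-POU4F2 with every other gene. Together the 6 genes took 287 reads in the SoxC morpholino library and 972 in the glycerol control, or 60.2 CPM in the morpholino library and 220.2 CPM in the control. Sp-Brn1-2-4 gave 54% of these reads in the morpholino library and 60.8% in the control, so the sum mainly follows that gene.

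**Figure D3:**
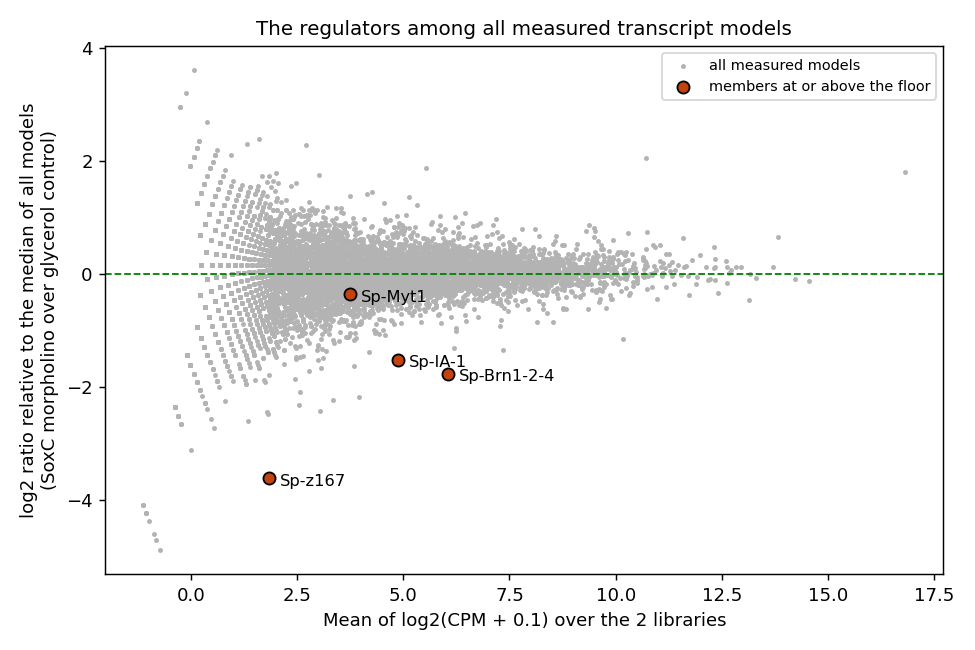
Each grey point is 1 of the 8819 measured models, with its mean log2 level over both libraries on the x axis and its relative log2 ratio on the y axis. Sp-z167, Sp-Brn1-2-4 and Sp-IA-1 lie at the lower edge of the cloud for their level, at -3.62, -1.78 and -1.52, and Sp-Myt1 lies inside it at -0.36. The regulators were picked with these ratios known, so nothing is read from their place.

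The models nearest to each measured regulator were found by the Euclidean distance of their log2 levels over the 2 libraries, among models with a single descriptive name. With 2 points per gene and levels that depend on transcript length, this shows only which rows look alike. For Sp-Brn1-2-4 they were Sp-Rbm14, Sp-Rlp2 and Sp-RACKc, at distances of 0.61, 0.63 and 0.81, with folds of 2.34, 2.26 and 1.89 lower. Sp-Slc7a11, Sp-Galnt14L and Sp-Pla2g1b were nearest to Sp-z167, at 0.8, 0.83 and 1.01, with folds of 6.94, 6.76 and 7.81 lower. Nearest to Sp-IA-1 were Sp-GAD, for the enzyme that makes the transmitter GABA, at 0.47, then Sp-Chrna9 at 0.53 and Sp-Clect_76 at 0.54. Their folds were 2.14, 2.06 and 2.47 lower. Sp-Myt1 had Sp-Cdk5rap1 with the same reads in both libraries, and Sp-ACY1L2 protein and Sp-Lmbr1L at 0.03 each. Sp-Myt1 shared its place with rows of other genes, and the nearest rows of Sp-z167, Sp-Brn1-2-4 and Sp-IA-1 all had smaller folds. The regulators were picked with their ratios known and were left out as candidates for each other, so nothing is read from this.

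Corepressor genes were listed because mammalian INSM1 and MYT1 proteins act with such complexes. Of 4 measured genes, none was lower or higher by the rule, and the median relative log2 ratio was -0.51. Sp-Rcor3, of the CoREST family, had 182 reads in the SoxC morpholino library and 310 in the glycerol control, a ratio of 0.56 (0.467 to 0.68). The histone deacetylase gene Sp-Hdac3 had 222 reads in the morpholino library and 362 in the control, a ratio of 0.59 (0.496 to 0.698). Sp-Mta1, of the NuRD complex, had 861 reads in the morpholino library and 1324 in the control, with a ratio of 0.62 (0.573 to 0.681). These 3 intervals lie below the ratio of the median model. By log2 ratio the genes ranked 1014th, 1176th and 1409th from the lowest of the 8819 measured models. The share of all models with such an interval was not counted, so nothing is read from these 3. Sp-Sin3a, the scaffold of another deacetylase complex, had 1845 reads in the morpholino library and 1831 in the control, with a ratio of 0.97 (0.907 to 1.03). Sp-Aof2, named for the LSD1 demethylase, had 1 read in the morpholino library and none in the control, and Sp-CTBP was blank.

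Among 22 other measured neurogenesis regulators, 5 were lower, 1 was higher and 16 met the rule in neither direction. These are 22.7% lower and 4.55% higher, beside 4.67% and 0.658% of all models. The higher one was soxC. The lower ones were homeobox or bHLH genes. Sp-Otp had 11 reads in the SoxC morpholino library and 63 in the glycerol control, at a relative log2 ratio of -2.32. Sp-Hb9, a motor neuron gene in vertebrates, had 11 reads in the morpholino library and 38 in the control, at -1.59. Sp-Sim had 6 reads in the morpholino library and 19 in the control, at -1.44. Sp-lhx2, whose model is also named Sp-Lim-containing1, had 64 in the morpholino library and 149 in the control, at -1.06. Sp-Hey, a repressor that responds to Notch, had no read in the morpholino library and 13 in the control. The median relative log2 ratio of the list was -0.12, also with Sp-Hey set at the 3-read floor, with 13 models below the overall median and 9 above it. That median was -0.07 without a level floor and -0.06 at a floor of 5 CPM, where 3 of the genes were lower. Sp-Ngn, Sp-neuroD1 and Sp-ELAV-like of this list were blank in both libraries, and Sp-Mbx1 was under the floor. Several members of this list were entered with their values known. The measured regulators of the set described here had relative log2 ratios of -3.62, -1.78, -1.52 and -0.36.

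**Figure D4:**
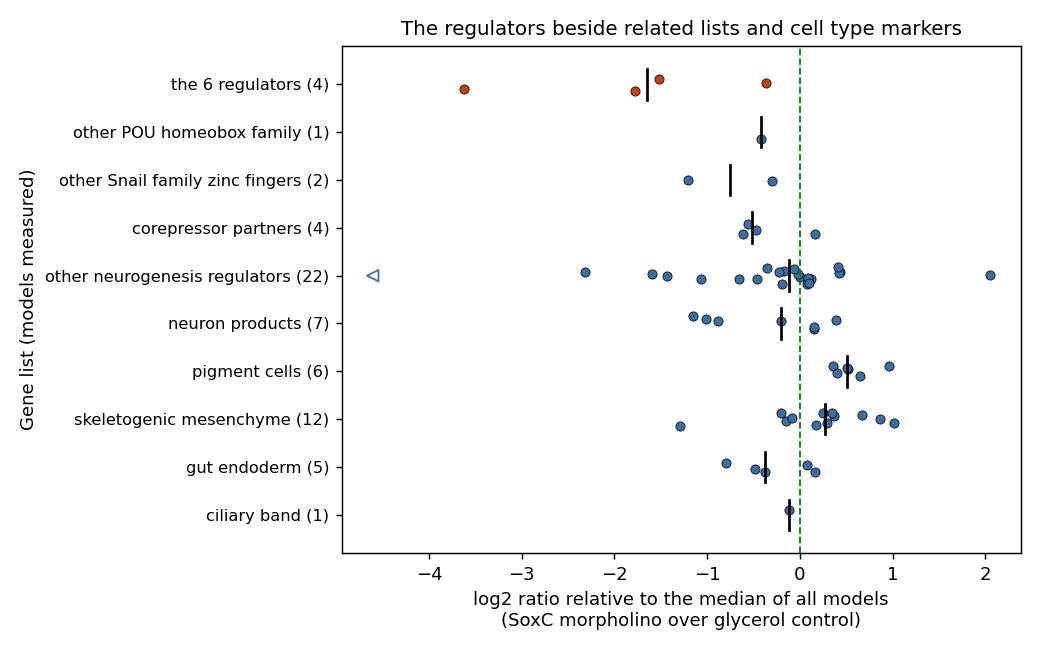
log2 ratio of the SoxC morpholino library over the glycerol control, with the overall median (dashed line) subtracted, for the 4 measured regulators (top row, orange) and for related gene lists and cell type markers (blue), with the list median as a bar; the 6 regulators are left out of the other rows. The open triangle is Sp-Hey, with no read in the morpholino library, whose position depends on the pseudocount. The top row has its median at -1.65 and pigment cell genes theirs at 0.51. The genes of the top row were picked with their ratios known, so nothing is read from that distance.

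Genes for products of mature neurons were thinly covered. Of 7 measured models, 2 were lower and none was higher, or 28.6% lower beside 4.67% of all models. The median relative log2 ratio was -0.20, but it was -0.95 without a level floor, -0.56 at a floor of 5 CPM and 0.15 with reads summed over all models of a name, so no direction is given for this list. Sp-VAChT, for the vesicular acetylcholine transporter, had 24 reads in the SoxC morpholino library and 60 in the glycerol control, and Sp-GAD had 88 in the morpholino library and 181 in the control. Sp-GAD, at a relative log2 ratio of -0.89, fell short of 2-fold once the overall median was set to 0. Sp-Snap25, for a synaptic vesicle fusion protein, was the highest at 0.39, with 232 reads in the morpholino library and 196 in the control. A further 5 genes of this list were under the floor, among them Sp-TPH for serotonin synthesis, with 1 read in the morpholino library and 5 in the control. Sp-Syt1-1 and Sp-ELAV-like were blank in both libraries.

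Of the markers of other cell types, 1 gut gene met the rule, and no pigment, skeletogenic or ciliary band gene did in either direction. Over all models 4.67% were lower and 0.658% higher, so with few genes per cell type nothing is read from these counts. All 6 measured pigment cell genes lay above the overall median, with a list median of 0.51 and a summed level of 20632 CPM in the SoxC morpholino library against 16236 CPM in the glycerol control. The pigment synthesis gene Sp-Ployketide_synthase_like gave 79.6% of this sum in the morpholino library and 77% in the control, so the sum mainly follows that gene. Of 12 skeletogenic mesenchyme genes, 8 lay above it and 4 below, with a median of 0.27 and sums of 2903 CPM in the morpholino library and 2889 CPM in the control. The 5 gut endoderm genes had a median of -0.37, which was -0.16 at a floor of 5 CPM, with sums of 1471 CPM in the morpholino library and 1733 CPM in the control. Unlike the list medians, the CPM sums do not have the overall median subtracted. A lower or near-equal sum is therefore not a direction relative to the median model. The gut gene that met the rule was the ParaHox gene Sp-Xlox, and its relative log2 ratio of -0.79 falls short of 2-fold. The 1 measured ciliary band gene, Sp-FoxG, had a relative log2 ratio of -0.12, from 80.6 CPM in the morpholino library and 104.7 CPM in the control. No defining marker used here for pigment cells was at 0 in either library. Sp-MSP130 of skeletogenic cells, Sp-Cdx of the gut and Sp-hnf6 of the ciliary band were blank. Sp-Endo16 of the gut was not among the gene names, and Sp-Alx1 and Sp-SM37 of skeletogenic cells were under the floor. The part of cell composition in the ratios of the regulators was not tested.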

How the data were processed

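RNA sequencing libraries of 1 SoxC morpholino pool and 1 glycerol control pool were compared, grouped by their titles. Each transcript model has 1 deposited signal value per library, scaled by the authors in a way the labels do not state. The submitters' processing notes name CASAVA 1.8 and Bowtie. No counting tool, strand use or genome build is given in the sources used here. Barcode and lane text are the same in both file headers. Repeated rows of a model were merged, leaving 12943 of 17269 models with a value; 4326 were blank in both libraries. Values were whole multiples of 2.54 in the morpholino library and 2.65 in the control, and division gave whole reads within 0.1 for 99.954% and 99.961% of models. No identifier matched the name table at hand, so neither positions nor sequences are given. Log2 ratios, and the 2-fold limit of the calling rule, used a pseudocount of 0.5 reads, which understates changes at few reads; printed folds and exact Clopper-Pearson 95% intervals did not. Levels are CPM of recovered reads with exact Poisson intervals. The members, lists and rules were chosen with earlier results of these data known. Named genes were the 6 members, the measured POU, Snail and corepressor genes, genes of the other lists that met the rule or stood highest or lowest, and the 3 nearest models per measured member. Some listed genes that were blank or under the floor are named as well. For several models of a name, the one with most reads was used. No test between conditions was possible with 1 library per group. Alternatives were scalings, floors, folds and pseudocounts. Python 3.11.15, numpy 2.4.6, pandas 2.3.3 and scipy 1.17.1 were used.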

Additional observations from a re-analysis of the deposited data

How the results depend on the processing

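Sp-z167, Sp-Brn1-2-4 and Sp-IA-1 made up 3 lower regulators, and the count was 3 under all 12 alternatives. Since these genes were picked on this same contrast, nothing is read from the count staying the same. Over the scalings and pseudocounts, the log2 ratio ran from -3.96 to -3.45 for Sp-z167, from -2.04 to -1.77 for Sp-Brn1-2-4, from -1.78 to -1.52 for Sp-IA-1 and from -0.62 to -0.36 for Sp-Myt1, and from -2.27 to -1.28 for Sp-POU4F2, all within their counting intervals. The counts over all models moved more. The main counts were 58 higher and 412 lower. Under the median of ratios they were 135 and 207, under the upper quartile 136 and 207, and with the most abundant model left out of the totals 115 and 239. They were 14 and 152 at a floor of 5 CPM, 142 and 870 at a fold of 1.5, 25 and 157 at a fold of 3, and 173 and 706 without the interval. A binomial test (exact, Benjamini-Hochberg adjusted, added after the data were seen) on the recovered reads called 28 and 247 and speaks of these libraries, not of the conditions. Lower neuron product genes went from 2 to 1 under the median of ratios, the upper quartile and the totals without that model, to 0 at a fold of 3, and to 3 without the interval. Lower neurogenesis regulators went from 5 to 3 with a floor of 5 CPM, which leaves fewer genes to test, to 7 at a fold of 1.5 and to 4 at a fold of 3. The median of the neuron products was -0.95 without a level floor, -0.56 at a floor of 5 CPM and 0.15 with summed reads, against -0.20, so its sign changed. The lower and upper counting bounds of the measured genes of this list had medians of -1.36 and 0.40. These are not an interval of the list median. The gut endoderm median was -0.16 at a floor of 5 CPM, against -0.37. The cause of the other changes was not tested. With 4 reads, depth limits the fold of Sp-z167, and 3 reads correspond to 0.63 CPM in the morpholino library and 0.68 CPM in the control. No paired analysis was possible because neither group has a second library.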
